A study of Homo sapiens with 6 samples.

Results

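The Hippo pathway transcripts described here were taken from the arrays of a Staufen1 (Stau1) RNA immunoprecipitation by gene symbol, from 9 names that cover Ajuba (JUB), the MOB adaptors, the LATS and MST kinases and YAP1. The deposited table has 37879 targets, and 8 of the 9 symbols were found, each as 1 target. MOBKL1B was not found under that symbol, and the target MOBK1B, whose definition in the table is the same MOB protein 1B, is shown beside the members and not counted among them. Older symbols are used as in the table. In the RefSeq table of gene names, JUB is now AJUBA, MOBKL2B is MOB3B, MOBKL1A is MOB1B and MOBK1B is MOB1A.

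The RNA came from HEK293T cells, an established human embryonic kidney line that is readily transfected. All cells were arrested in prometaphase with nocodazole, a drug that depolymerizes microtubules, with 15 h of exposure to 50 ng/ml per the labels. The 3 control IPs were from cells that carried the empty vector and the 3 Stau1 IPs from cells that carried plasmids for Stau155-FLAG, and anti-FLAG antibody was used on both. The tagged protein was expressed from a plasmid beside the cells' own Stau1, and the labels do not say whether the replicates were separate transfections, so that p-values measure only the spread between these arrays. Whether more of an RNA on a Stau1 IP array reflects binding to Stau1 or another difference between precipitates cannot be told apart from these arrays alone.

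The Hippo pathway is a kinase cascade that restrains growth and takes part in the control of mitosis. The MST kinases STK3 and STK4, with the scaffold SAV1, phosphorylate the MOB1 adaptors and the LATS kinases, and LATS phosphorylates the coactivator YAP1 and keeps it out of the nucleus, away from the TEAD transcription factors. JUB is a LIM-domain scaffold that binds LATS and also takes part in the activation of Aurora A at mitotic entry.

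Each array gave a mean bead signal per target with its standard error between beads, the bead count, and a detection p-value. A detection p-value rates a target against the negative controls on the same array. It did not always follow the signal: STK24 of the pathway, with signals between 2444 and 3063, was detected on no array. Detection was set at a detection p under 0.05, which 11635 to 13054 targets reached per array, and 26.1% of all targets did so on all 6 arrays. The background, read where the detection p was 0.5, lay between 77.6 and 89.6. With 3 arrays per group, precision is limited by their number. Of the HEK293T and mitotic markers, VIM, NEFM, INA, CCNB1, PLK1, AURKA and CDC20 were detected on all 6 arrays and PAX2 on 1. ALB of liver and PTPRC of blood cells were detected on none, while COL1A1 of fibroblasts was detected on 5 arrays with signals of at most 152. STAU1 itself had signals of 2499, 3246 and 2758 in the control IPs, against 2845, 1857 and 3130 in the Stau1 IPs (arrays 1, 2 and 3 of each), and the groups overlapped.

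The arrays numbered 2 stood apart from their groups, the array labelled Stau1 IP 2 more clearly than the other. Among targets with detection on every array, its normalized values correlated at 0.936 and 0.940 with Stau1 IPs 1 and 3, and at 0.961 and 0.975 with control IPs 1 and 3. The array labelled control IP 2 correlated alike with both groups, at 0.977 and 0.982 with control IPs 1 and 3 and at 0.982 and 0.984 with Stau1 IPs 1 and 3. The other control IPs reached 0.939 to 0.963 with these Stau1 IPs. All other arrays had been normalized to control IP 2, which can raise its correlations. The values of both arrays numbered 2 are therefore given singly for each member, and fold changes are given with all 6 arrays and without these 2. No array was moved to the other group. Since these 2 arrays were singled out by their measured profiles, p-values from the other 4 describe those arrays and are not independent evidence of enrichment. Where 3 values of a group are given together, they are in the order of arrays 1, 2 and 3.

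STK4, the MST1 kinase at the head of the cascade, had by far the widest spread over arrays. Its signal was 1111 on control IP 1, 3289 on control IP 2 and 1106 on control IP 3. It was 3256 on Stau1 IP 1, 870 on Stau1 IP 2 and 3694 on Stau1 IP 3. Control IP 2, Stau1 IP 1 and Stau1 IP 3 were thus high and the other 3 arrays low, and the labelled groups overlapped. The standard error between beads was between 22.3 and 102 signal units, and the SD of the 6 signals was 21.4 times its median.

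By the labels, normalized log2 values of STK4 averaged 10.86 ± 0.73 (SD, n = 3) over the control IPs, against 11.23 ± 1.24 (SD, n = 3) over the Stau1 IPs. The log2 fold change, Stau1 IP minus control IP, was 0.37 (95% confidence interval -1.42 to 2.16, adjusted p = 0.946 from limma), less than the spread within either group. Without the arrays numbered 2 the mean was 10.44 in the 2 control IPs and 11.95 in the 2 Stau1 IPs. The log2 fold change was then 1.50 (95% interval 1.38 to 1.63), a fold of 2.84 that passed the threshold (adjusted p = 0.00817 from limma). Enrichment above 2.5-fold with an unadjusted p under 0.05, the threshold of the methods, was reached on those 4 arrays by 262 targets, 0.692% of the array, and an adjusted p under 0.05 with higher Stau1 IPs by 3.55%. When single arrays were left out instead, the log2 fold change of STK4 was 1.08 without Stau1 IP 2, 0.79 without control IP 2, and between 0.00137 and 0.17 without any one of the others.

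STK3, the MST2 kinase and closest relative of STK4 in the pathway, did not follow this pattern. Its signal was 709, 696 and 687 in the control IPs, against 472, 466 and 432 in the Stau1 IPs. All 3 control IPs lay above all 3 Stau1 IPs, and the arrays numbered 2 lay with their labelled groups. The bead standard errors were between 15.8 and 36.0 signal units. The means were 697 ± 10.6 (SD, n = 3) and 457 ± 21.7 (SD, n = 3) signal units before normalization.

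Normalized log2 values of STK3 averaged 9.72 ± 0.16 (SD, n = 3) over the control IPs, against 9.07 ± 0.15 (SD, n = 3) over the Stau1 IPs. The log2 fold change of STK3 was -0.65 (95% interval -0.94 to -0.37), a level 1.57-fold higher in control IPs. The unadjusted p was 0.00173 by limma, smaller than that of all but 0.380% of targets, and it did not pass after adjustment over all targets (adjusted p = 0.447). Without the arrays numbered 2 the log2 fold change was -0.71 (95% interval -1.03 to -0.40, adjusted p = 0.0555 from limma), just short of the threshold. With these arrays left out, other processings chosen after seeing the data differed in the call. STK3 passed under quantile normalization (-0.85, adjusted p = 0.0134 from limma) and with shifted log2 values (-0.88, adjusted p = 0.0159 from limma), and did not pass under neqc (-0.41, adjusted p = 0.121 from limma). Stau1 IPs lay wholly below control IPs for 8.44% of all targets and for 15.3% of those detected on all 6 arrays, so that the separation of STK3 by itself was common on these arrays.

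YAP1, the coactivator that the cascade restrains, stood apart on 1 array. Its signal was 210, 285 and 230 in the control IPs, against 231, 112 and 232 in the Stau1 IPs. It was detected on 5 arrays and not on Stau1 IP 2, and the signals of the other 2 Stau1 IPs lay within the range of the control IPs. After normalization Stau1 IP 3 lay just below this range, at 8.16 (log2) against 8.25 on control IP 1. By the labels YAP1 had a log2 fold change of -0.39 (95% interval -1.04 to 0.27, adjusted p = 0.827 from limma). Without Stau1 IP 2 it was -0.09 (adjusted p = 0.657 from limma), and without both arrays numbered 2 it was -0.06 (95% interval -0.24 to 0.12, adjusted p = 0.798 from limma). The STAU1 signal was also lowest on that array.

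**Figure D1:**
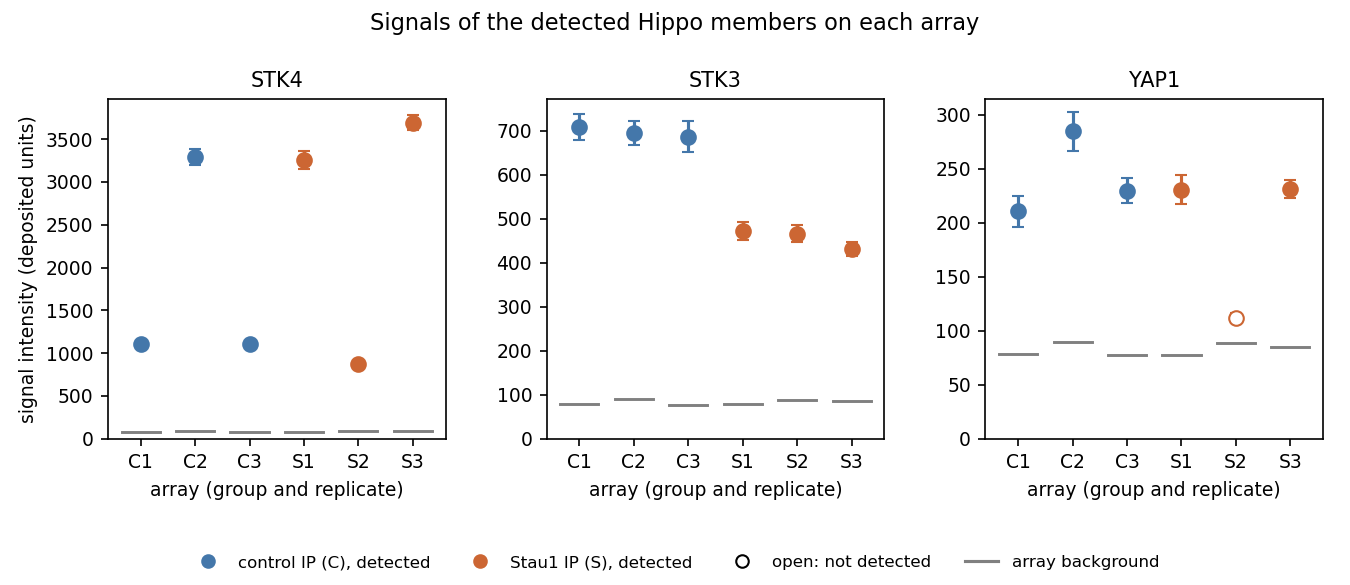
Signal intensity of STK4, STK3 and YAP1 (vertical axis, deposited units, from 0) on control IP arrays C1 to C3 and Stau1 IP arrays S1 to S3. Bars are the standard error between beads, grey lines the background of each array and the open point an array on which the target was not detected: STK4 is high on C2, S1 and S3, STK3 lies between 687 and 709 on C1 to C3 and between 432 and 472 on S1 to S3, and YAP1 is low on S2, at 112.

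JUB, the scaffold that binds LATS, lay near the background as a combined target. The bead counts of JUB, such as 35.7 on control IP 1 and 42.3 on control IP 3, are averages over more than 1 probe. The signal of JUB therefore does not show any single probe. Its signal was 76.1, 110 and 78.9 in the control IPs, against 99.9, 91.7 and 102 in the Stau1 IPs. After subtraction of the background of each array, -2.48, 20.5 and 1.27 were left on the control IPs and 22.0, 3.21 and 16.6 on the Stau1 IPs. Control IP 2, Stau1 IP 1 and Stau1 IP 3 were the 3 highest, at 16.6 to 22.0 above background, while the other 3 arrays were within 3.21 of it. MOBKL1A, detected on no array, had the same 3 highest, at 22.5, 11.9 and 14.7 above background, and LATS1, LATS2 and MOBK1B did not. The share of all targets with this order was not counted. For JUB the standard error between beads was between 3.12 and 6.37 signal units. JUB was detected on Stau1 IP 1 alone, with a detection p of 0.0257.

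Since JUB was detected on no control IP and on 1 of the 3 Stau1 IPs, no fold is given. The normalized means were 7.16 and 7.22 (log2) in control IPs and Stau1 IPs, and the difference did not pass with all 6 arrays (adjusted p = 0.908 from limma) or without the arrays numbered 2 (adjusted p = 0.154 from limma).

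MOBKL2B, a MOB protein of a class distinct from MOB1, was the one dim member detected on 4 of the 6 arrays. Its signal was 108, 185 and 90.3 in the control IPs, against 138, 94.0 and 163 in the Stau1 IPs. The 3 highest arrays were control IP 2, Stau1 IP 3 and Stau1 IP 1, and it was not detected on control IP 3 or Stau1 IP 2. The labelled groups overlapped over nearly their whole range.

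By the labels the log2 fold change of MOBKL2B was 0.02 (95% interval -0.55 to 0.59, adjusted p = 0.993 from limma), and its sign turned when 1 of control IP 1, control IP 3, Stau1 IP 1 or Stau1 IP 3 was left out. Without the arrays numbered 2 it was 0.38 (95% interval 0.15 to 0.61, adjusted p = 0.113 from limma), which did not pass. Of the processings added on those 4 arrays after seeing the data, it passed with shifted log2 values (0.92, adjusted p = 0.0270 from limma), and not under quantile normalization (0.33, adjusted p = 0.115) or neqc (0.03, adjusted p = 0.312).

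The MOB1 adaptors activate LATS. MOBKL1A had signals of 82.7, 112 and 84.9 in the control IPs, against 89.8, 93.7 and 99.8 in the Stau1 IPs, and it was detected on none of them. MOBK1B had 103, 124 and 95.4 on the control IPs and 87.3, 89.6 and 119 on the Stau1 IPs, and it was detected on control IP 2 and Stau1 IP 3. Its log2 fold change was -0.12 (adjusted p = 0.841 from limma), and -0.03 without the arrays numbered 2 (adjusted p = 0.959). The 2 proteins are close paralogs, and the table does not show which bases their probes read.

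The LATS kinases phosphorylate YAP1, and LATS1 and LATS2 are also found at the centrosome and spindle. LATS1 had signals of 76.2, 92.2 and 82.4 in the control IPs, against 75.7, 82.9 and 86.3 in the Stau1 IPs. Its bead counts, such as 50.5 on control IP 1 and 48.5 on Stau1 IP 1, are also averages over more than 1 probe. LATS2 had 79.9, 98.4 and 95.1 on the control IPs and 69.8, 82.2 and 85.8 on the Stau1 IPs. Neither was detected on any array, so no fold is given for them or for MOBKL1A. The normalized values of LATS2 lay lower on all 3 Stau1 IPs. Its signals were only between -8.14 and 17.4 signal units from the background, so this difference is one between signals near background. Of all targets, 59.5% were detected on no array.

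**Figure D2:**
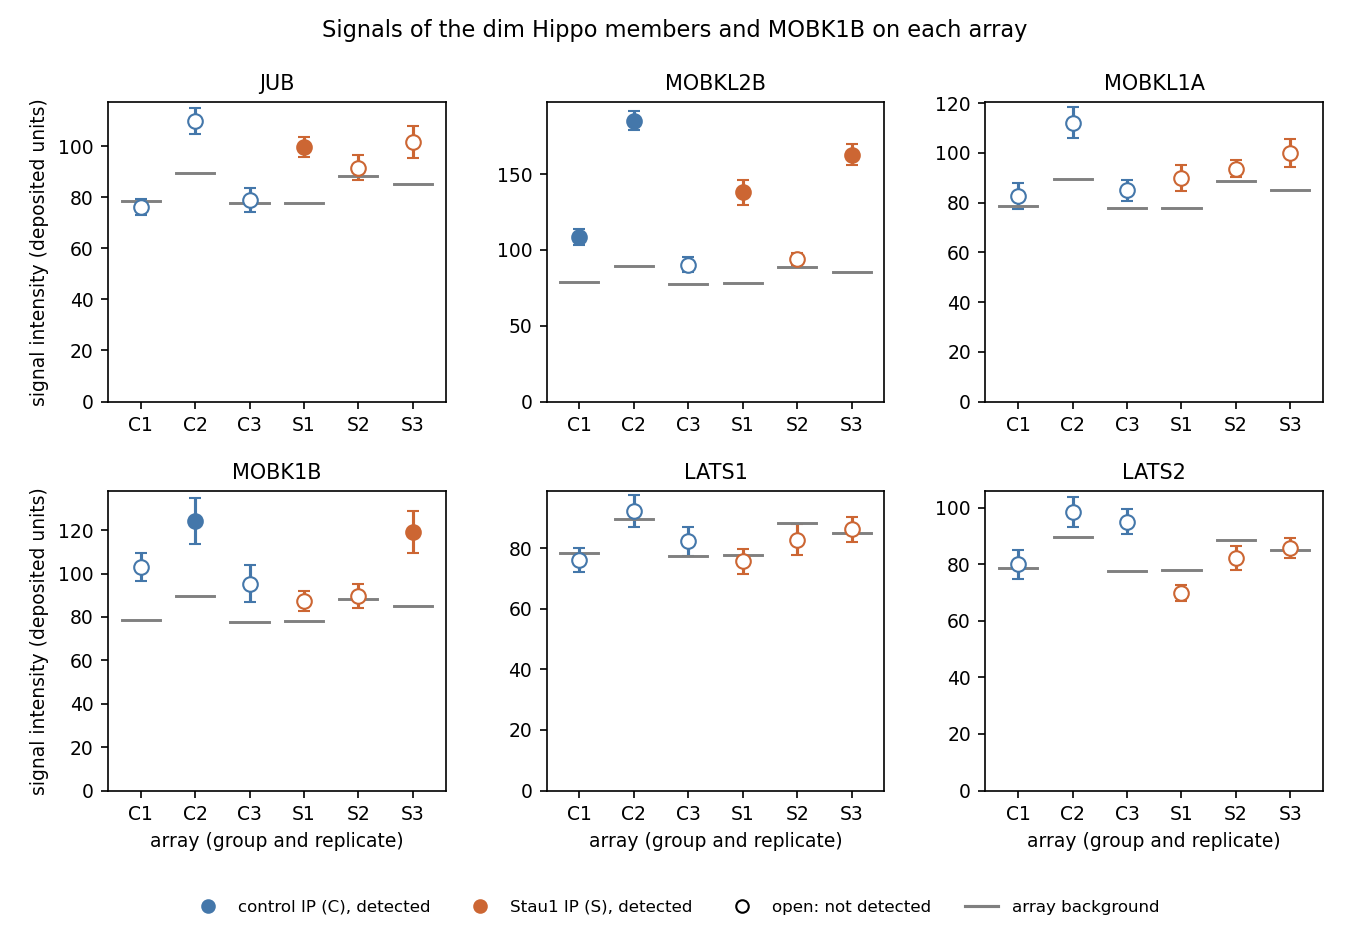
Signal intensity (vertical axis, deposited units, from 0) of JUB, MOBKL2B, MOBKL1A, MOBK1B, LATS1 and LATS2 on control IP arrays C1 to C3 and Stau1 IP arrays S1 to S3, with the standard error between beads as bars. Filled points are detected, open points are not, and grey lines are the array background: MOBKL2B stands clear of it on C2, S1 and S3, at 185, 138 and 163, and LATS1 lies between -5.58 and 4.76 signal units from it.

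Over the 8 members found, 0 passed the fold threshold and 0 an adjusted p under 0.05 by the labels. Over all 37879 targets these counts were 1 enriched target (0.00264%), 0 depleted (0%) and 0 at the adjusted p (0%). An unadjusted p under 0.05 by limma was reached by STK3 and LATS2, 2 of the 8 members, against 7.39% of all targets. The groups did not overlap for the same 2 members, both lower in Stau1 IPs, against 8.44% of all targets in that direction, and for 0 members that were higher, against 4.94% of all targets. By the methods' t-test 0 members passed the adjusted p as well. Without the arrays numbered 2, STK4 was the 1 member that passed either threshold. On those 4 arrays 0 members were depleted by the fold threshold (0.0396% of all targets) or lower at the adjusted p (1.62%). An unadjusted p under 0.05 by limma was reached there by JUB, MOBKL2B, STK3 and STK4 of the 8 members, against 17% of all targets. Since the arrays left out were singled out by their profiles, this describes those 4 arrays only.

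**Figure D3:**
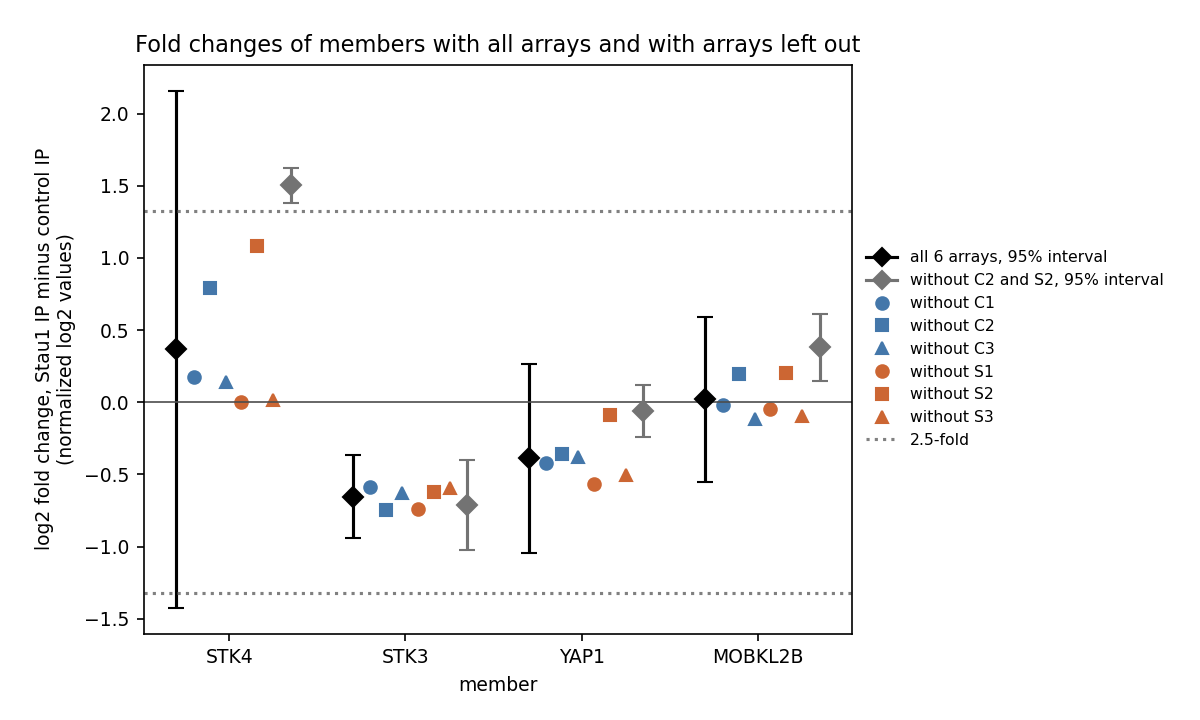
Log2 fold change (vertical axis, normalized log2 values, Stau1 IP minus control IP) of STK4, STK3, YAP1 and MOBKL2B. Diamonds with 95% intervals are all 6 arrays (black) and the 4 arrays left without C2 and S2 (grey), small symbols leave out 1 array each and dotted lines mark 2.5-fold: STK4 moves from 0.37 to 1.50, while STK3 stays between -0.58 and -0.74 with 1 array left out.

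The other genes of the pathway were taken from a list of 51 symbols, of which 50 were found and 24 were detected on all 6 arrays. Targets with signals well above background fell outside the 24, such as STK24, detected on 0 arrays, TEAD4 on 5 and TAOK2 on 4. Their log2 fold changes by the labels were -0.17, 0.09 and 0.34 (adjusted p = 0.816, 0.883 and 0.623 from limma). By the labels, 0 of the 50 passed the fold threshold and 0 the adjusted p. An unadjusted p under 0.05 by limma was reached by 3 that were higher and 3 that were lower in Stau1 IPs, against 2.19% and 5.2% of all targets. The median log2 fold change of the 50 was 0.0082, and that of all targets -0.00085. Without the arrays numbered 2 the median was 0.07, against -0.0013 over all targets. For targets detected on all 6 arrays the median was then 0.21 over the 24 and 0.0086 over all 9884, and this difference was not tested. Without those arrays 1 target of the 50 was past the fold threshold, RASSF1. At the adjusted p 4 were higher (TEAD2, STK25, WTIP and SCRIB, with log2 fold changes of 0.47, 0.34, 0.76 and 0.66). Over all targets these shares were 0.692% and 3.55%, and of the 9884 targets detected on all 6 arrays 1039 were higher at the adjusted p, against 4 of the 24 here. None of the 50 was lower at the adjusted p, against 1.62% of all targets.

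Among the upstream genes, RASSF1, a scaffold that binds the MST kinases, had the highest fold change of the 24 targets detected on all 6 arrays. Its signal was 318, 692 and 574 in the control IPs, against 1511, 560 and 1477 in the Stau1 IPs. Here Stau1 IP 1 and Stau1 IP 3 stood above the rest, and the array labelled control IP 2 lay with the low ones, unlike for STK4. The log2 fold change was 0.96 ± 0.49 (SE, adjusted p = 0.755 from limma), and 1.59 ± 0.28 (SE, adjusted p = 0.0660) without the arrays numbered 2.

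LLGL1, a polarity protein, and DCHS1, a cadherin that acts as a ligand for FAT4, followed among these 24, with log2 fold changes of 0.37 ± 0.24 (SE) and 0.33 ± 0.18 (SE), and of 0.73 ± 0.14 (SE) and 0.56 ± 0.17 (SE) without the arrays numbered 2. SAV1, the scaffold of STK3 and STK4, was among the lowest at -0.33 ± 0.17 (SE). Its signal was 264, 288 and 261 in the control IPs, against 237, 163 and 264 in the Stau1 IPs, with Stau1 IP 2 the lowest. After normalization all 3 Stau1 IPs lay below all 3 control IPs, and without the arrays numbered 2 the log2 fold change was -0.19 ± 0.04 (SE, adjusted p = 0.103 from limma). AMOT, which binds YAP1, had -0.38 ± 0.27 (SE) and 0.02 ± 0.10 (SE) without the arrays numbered 2. With all 6 arrays none of these passed (adjusted p between 0.750 for SAV1 and 0.843 for AMOT from limma).

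SLMAP, which brings the STRIPAK phosphatase complex to the MST kinases, was the lowest of the 24. Its signal was 431, 553 and 515 in the control IPs, against 362, 200 and 398 in the Stau1 IPs. All Stau1 IPs lay below all control IPs, as for STK3. The log2 fold change was -0.69 ± 0.25 (SE, adjusted p = 0.651 from limma), and -0.42 ± 0.08 (SE, adjusted p = 0.0781) without the arrays numbered 2.

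Among the paralogs of the members, WTIP, a LIM-domain relative of JUB, was detected on all 6 arrays, unlike JUB. Its signal was 149, 292 and 161 in the control IPs, against 328, 159 and 297 in the Stau1 IPs, the same 3 high arrays as for STK4. These 3 arrays were also the highest for other detected pathway targets, such as TEAD2, SCRIB and LLGL1. The share of all targets with this order was not counted. WTIP had a log2 fold change of 0.29 ± 0.30 (SE, adjusted p = 0.892 from limma), and 0.76 ± 0.11 (SE, adjusted p = 0.0455) without the arrays numbered 2. LIMD1, the other relative, was detected on no array. MOBKL2A, a relative of MOBKL2B, was detected on all 6 arrays with signals between 195 and 303 and a change of 0.19 ± 0.09 on the log2 scale (SE, adjusted p = 0.729 from limma), and 0.29 ± 0.09 (SE, adjusted p = 0.204) without the arrays numbered 2. MOBKL2C was detected on 2 arrays and had 0.10 ± 0.12 (SE, adjusted p = 0.908), and 0.26 ± 0.10 (SE, adjusted p = 0.348) without these arrays, and MOBKL3 was not found by symbol.

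**Figure D4:**
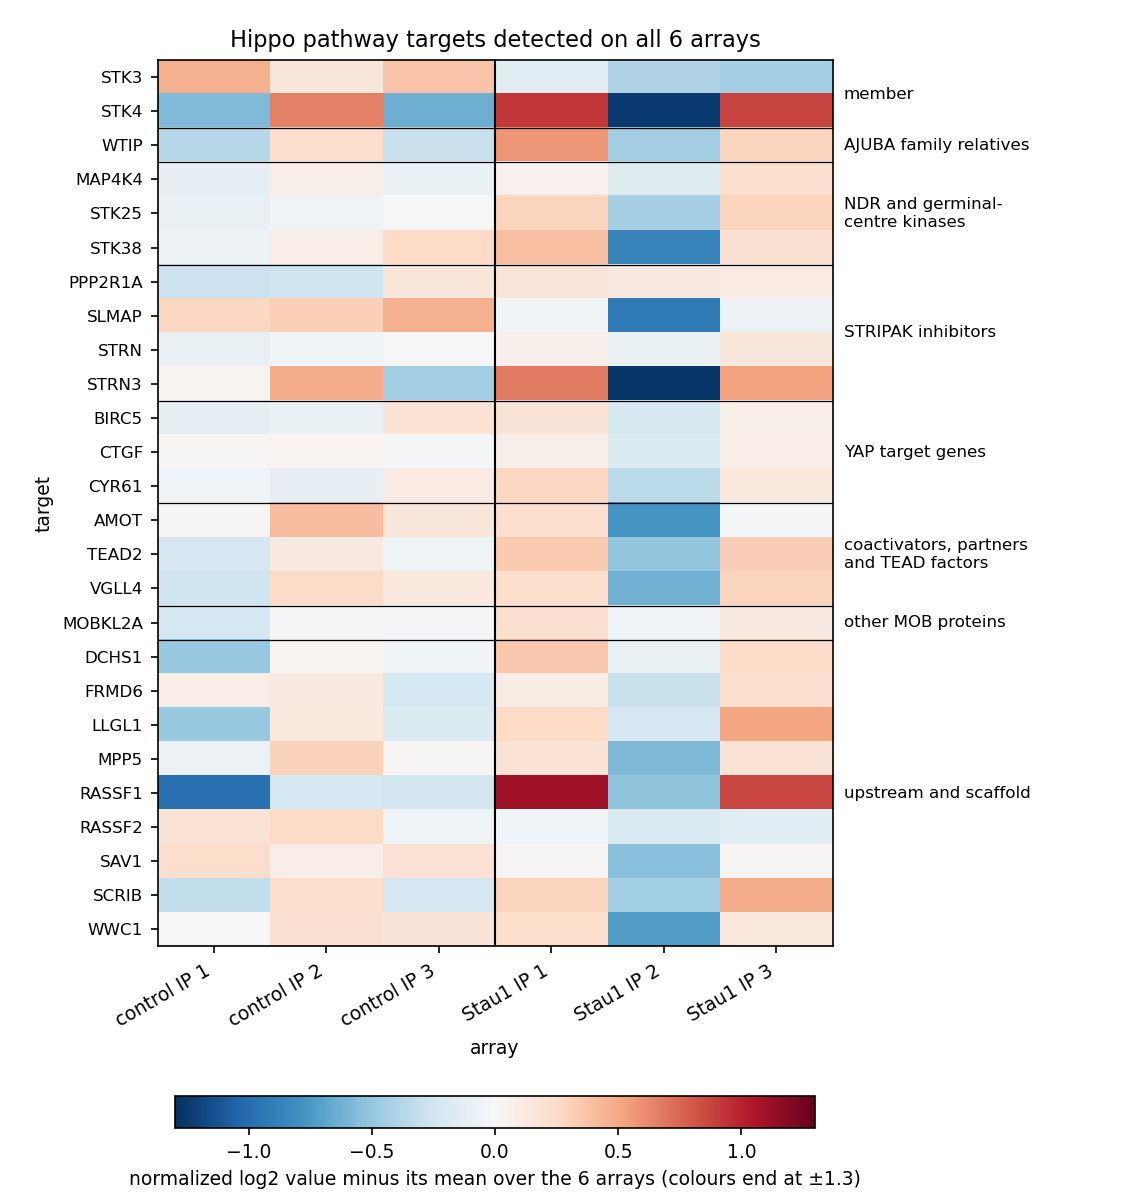
Normalized log2 value minus its mean over the 6 arrays (colour, red above and blue below, ending at ±1.3) for the 2 members and 24 other pathway targets detected on all 6 arrays (rows, by group) on each array (columns). STK4, WTIP and others such as TEAD2, SCRIB and LLGL1 are red on control IP 2, Stau1 IP 1 and Stau1 IP 3. STK3 and SLMAP are higher on all 3 control IPs, and RASSF1 is red on Stau1 IP 1 and Stau1 IP 3 only.

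For the 2 members detected on all 6 arrays, the targets with the most similar profile were sought among 9443 other detected targets with a symbol, by the Pearson correlation of normalized values over the 6 arrays. The highest for STK4 were ZNF621 (0.998), METTL7A (0.998) and ZFYVE20 (0.997). ZFYVE20, for example, had signals of 1620, 5453 and 1821 in the control IPs, against 5453, 1469 and 6371 in the Stau1 IPs. The highest for STK3 were TBC1D15 (0.995), SEC61B (0.994) and SEPT11 (0.992). TBC1D15 had 891, 904 and 910 on the control IPs and 587, 613 and 580 on the Stau1 IPs. With so many targets and 6 arrays, values this high are given as a description only.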

How the data were processed

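RNA from 3 control IPs and 3 Stau1 IPs was hybridized to Illumina HumanWG-6 BeadChips. The authors deposited the signal intensity, the bead standard error, the bead number and a detection p-value per target as BeadStudio wrote them, with no background subtraction or normalization and the probes of a target combined. STAU1, at a signal of 2499 on control IP 1, had a detection p above 0.05 there, so bright targets can miss detection.

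The steps the methods name were rebuilt in R (4.3.3), using limma (3.58.1) for the tests and mgcv (1.9.3) for the splines. For the background, which was subtracted, the 200 targets closest to a detection p of 0.5 were taken on each array and their median signal used. A model of the SD between beads, fitted over 500 bins per array, gave a generalized log2, which near background behaves like log2 after adding a constant to the signal. Robust spline normalization with 10 knots mapped all arrays on control IP 2, the array with the highest mean correlation. The scale understates fold changes of dim targets. The steps were tested on simulated data. Groups were taken from the titles. All 37879 targets were tested with lmFit and eBayes of limma, with Benjamini-Hochberg adjustment over them, and the fold threshold of 2.5 at p under 0.05 is that of the methods. The shifted log2 values are background-subtracted signals plus a constant per array that makes them positive, before normalization.

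The members and lists were chosen with earlier results of these data known. Named were all members, STAU1, paralogs of members, the 3 highest and the 3 lowest of the detected pathway targets, targets that passed a threshold and the 3 targets most like each detected member. Alternatives were neqc, quantile normalization, shifted log2 values, no background subtraction, a detection filter, the methods' t-test, the replicate block, a mean-variance trend in eBayes, each array left out and both arrays numbered 2 left out. Normalization was not repeated when arrays were left out. No sequence is printed, since the files used here hold none of the probes. Figures were drawn with Python 3.11.15 and matplotlib 3.10.9.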

Additional observations from a re-analysis of the deposited data

How the results depend on the processing

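STK3 and YAP1 kept a negative and STK4 a positive log2 fold change under every alternative run. JUB passed under none, and could not be tested under the detection filter. The sign of MOBKL2B turned under neqc (-0.00037) and quantile normalization (-0.0024), and it ranged from -0.12 to 0.38 with arrays left out. With 1 or both arrays numbered 2 left out, or any 1 other, STK3 ranged from -0.74 to -0.58, STK4 from 0.00137 to 1.50 and YAP1 from -0.57 to -0.06. The number of targets past the fold threshold, 1 enriched and 0 depleted by the labels, was 3 and 7 under neqc and 9 and 10 with shifted log2 values. It was 0 enriched under the methods' t-test and 0 under the replicate block. At the adjusted p, 2 targets passed under neqc and 1 under quantile normalization. The cause was not tested. No background subtraction changed nothing, since the fitted model takes up the shift.

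With arrays left out, between 0 and 262 targets were enriched, between 0 and 15 depleted, and between 0 and 1958 passed the adjusted p. The number enriched was 149 without Stau1 IP 2 (7 depleted) and 3 without control IP 2 (4 depleted), and 262 without both. Between 0 and 1 member passed the fold threshold and between 0 and 1 the adjusted p. Of the other pathway genes between 0 and 1 passed the fold threshold and between 0 and 4 the adjusted p. Combinations chosen after seeing the data left out the arrays numbered 2 under another processing. With quantile normalization they gave 236 enriched, 21 depleted and 2809 at the adjusted p, with 1 member past the fold and 2 at the adjusted p, and 1 and 5 of the other pathway genes. With shifted log2 values they gave 458, 49 and 2598, with 1 and 3 members and 1 and 4 of the other genes. With neqc they gave 230, 99 and 248, with 1 member by either rule, STK4. The neqc background SD, taken from the detection p-values, was between 460 and 608 signal units, far above the 25.2 to 27.3 between single beads at background, and it compresses dim targets most.

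For replicate numbers 1, 2 and 3, the correlation between the control IP and the Stau1 IP, each taken as a deviation from its group, was -0.45, -0.75 and -0.36. Deviations within a group depend on one another, and both arrays numbered 2 departed toward the other group. These correlations therefore cannot show whether the numbers pair the arrays, and the main fit treated them as unpaired. With the replicate block STK3 had an adjusted p of 0.463 and STK4 one of 0.984 from limma, and 0 members passed.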
